A study of Mus musculus with 2 samples.

Results

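The MAP kinase phosphatases of the Dusp family were followed in hippocampal microglia, the brain's own macrophages. The 8 genes Dusp1, Dusp2, Dusp4, Dusp5, Dusp6, Dusp7, Dusp10 and Dusp16 were taken by symbol, out of 32245 gene symbols in the files, and all 8 were found. They had been picked because earlier results of these data showed members on both sides of the comparison, so the differences between libraries are given as a description. An FGR library (fetal growth restriction, impaired growth before birth) and a Control library were made from mice, both 3 weeks after birth and both of the genotype Tmem119-tdTomato+/-, a red reporter allele of Tmem119, a gene largely specific to microglia. Tmem119-positive cells had been sorted and made into 10x Genomics 3′ single-cell libraries, in which each captured transcript is counted as 1 unique molecular identifier (UMI). The sources used here give neither the number of animals per library nor the way growth was restricted. With 1 library per group no difference could be tested, higher and lower describe these 2 libraries, and all intervals are 95% intervals of counting error only.

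MAP kinases (ERK, JNK and p38) carry signals from receptors and from stress to the nucleus, and they are active only while a threonine and a tyrosine in their activation loop are both phosphorylated. Dual-specificity phosphatases of this family remove both phosphates and so end the signal. Many of the genes are themselves switched on by MAP kinase signalling, which makes them a negative feedback. In macrophages and microglia they limit the inflammatory response, with Dusp1 the best known example, induced by stress, by inflammatory stimuli and by glucocorticoids. The members differ in where they act and on what. Dusp1, Dusp2, Dusp4 and Dusp5 encode inducible nuclear enzymes, Dusp6 and Dusp7 encode cytoplasmic enzymes selective for ERK, and Dusp10 and Dusp16 encode enzymes that act mainly on JNK and p38.

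Promoter sequences were at hand for 7 of the 8 members (RefSeq, GRCm38.p6, the 250 bases before the annotated start). Those of Dusp1, Dusp2, Dusp6 and Dusp7 are shown because these 4 genes were the members with enough counts to be compared, and because Dusp1 and Dusp7 had the largest differences in opposite directions. Each is written 5′ to 3′ on the gene's own strand, and capitals mark the core of the cAMP response element (CRE), TGACG, on either strand. Their positions are chr17:26508473-26508722 (minus strand) for Dusp1, chr2:127335909-127336158 (plus) for Dusp2, chr10:99262981-99263230 (plus) for Dusp6 and chr9:106368382-106368631 (plus) for Dusp7.
Dusp1: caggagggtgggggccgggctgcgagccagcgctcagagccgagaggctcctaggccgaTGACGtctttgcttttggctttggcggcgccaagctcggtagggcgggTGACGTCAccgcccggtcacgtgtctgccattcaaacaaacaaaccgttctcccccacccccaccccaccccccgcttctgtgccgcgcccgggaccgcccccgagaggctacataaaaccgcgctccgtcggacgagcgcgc
Dusp2: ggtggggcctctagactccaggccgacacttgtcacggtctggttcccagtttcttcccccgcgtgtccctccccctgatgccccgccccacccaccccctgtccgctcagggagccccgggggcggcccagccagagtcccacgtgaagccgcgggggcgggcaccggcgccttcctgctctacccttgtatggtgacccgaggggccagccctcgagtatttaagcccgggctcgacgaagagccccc
Dusp6: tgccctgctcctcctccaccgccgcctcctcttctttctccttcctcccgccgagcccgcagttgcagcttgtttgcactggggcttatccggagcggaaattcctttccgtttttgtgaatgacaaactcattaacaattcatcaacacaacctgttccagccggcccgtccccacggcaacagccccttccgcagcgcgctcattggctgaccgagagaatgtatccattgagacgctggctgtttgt
Dusp7: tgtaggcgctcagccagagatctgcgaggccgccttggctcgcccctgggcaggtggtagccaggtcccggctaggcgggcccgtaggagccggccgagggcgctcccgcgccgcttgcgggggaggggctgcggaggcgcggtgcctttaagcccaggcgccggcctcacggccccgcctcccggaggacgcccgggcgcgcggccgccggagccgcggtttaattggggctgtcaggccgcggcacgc
The Dusp1 promoter held the full CRE, TGACGTCA, from base -143 (counted back from -1, the base before the start), a palindrome that holds a core on each strand, and a further core from base -191. Of 32851 promoters of this length, 1.55% held the full CRE and 17.8% a core. The other 3 promoters shown held no core, while Dusp5 and Dusp16 held 1 each. GC boxes (GGGCGG, in 32.7% of promoters) numbered 5 in Dusp16, 3 in Dusp1, 3 in Dusp2, 2 in Dusp10 and 1 in Dusp5. Dusp5 held 2 adjacent CArG boxes, the binding motif of serum response factor (in 1.47% of promoters), from bases -82 and -72. A CACGTG E-box (in 6.02% of promoters) stood in Dusp1 from base -126 and in Dusp2 from base -109. The glucocorticoid response element (0.387% of promoters), TGANTCA of AP-1 (6.75%) and the NF-kB motif (3.9%) had no match in any of the 7, and none of the motifs searched was found in the windows of Dusp6 or Dusp7. Both strands were searched, and a match or its absence describes letters in this window only.

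Cells were barcodes of at least 1500 UMIs and 200 genes with at most 10% of UMIs from mitochondrially coded genes, which gave 8618 FGR and 10687 Control cells with medians of 4919.5 and 4657 UMIs. The libraries shared 31 cell barcodes, 0.36% of the FGR and 0.29% of the Control cells. All 12 microglial markers were measured and 0 of them called by the rule of size given below, which called 3.64% of all genes measured. Together they stood at 40883 UMI counts-per-million (CPM) in FGR cells and 41695 CPM in Control cells. They were not all level. Their ratios of FGR over Control ran from 0.669 (0.656 to 0.682) for Sall1, close to the limit, and 0.795 for P2ry12 to 1.09 for C1qb. The 54 markers of other cell types together stood at 763.7 CPM in FGR cells and 622.5 CPM in Control cells. By list, FGR cells had 240.8 CPM of oligodendrocyte, 325.6 of astrocyte, 3.87 of neuron, 116.4 of vascular and fibroblast, and 77.0 of blood and border immune cell markers. Control cells had 191.2, 195.4, 8.66, 60.1 and 167.1 CPM of these lists in the same order. Among such markers that reached 50 CPM, Slc1a3 was higher and Mbp and Hbb-bs lower in FGR cells by the rule of size given below. Ly6c2 was at 0 in both libraries, S100a8 in FGR cells, and Cd163, Cd3e, Lyve1 and Nkg7 in Control cells. Microglial markers were outnumbered by those of other types in 51 FGR and 27 Control cells.

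Dusp1 was much higher and Dusp7 lower in FGR cells, and the other members lay closer together. A gene counted as measured from 50 CPM in either library upward, and it was called when the whole interval of its ratio (FGR over Control) lay beyond 1.5-fold. Of the 8 members 4 were measured, of which 1 was higher, 1 was lower and 2 were not called. Over all 3512 genes measured, 3.64% were called, 2.48% higher and 1.17% lower, with a median log2 ratio of -0.07. The choice of members used this contrast, so nothing is read from the members' share. Together the 8 genes came to 3373 CPM in FGR cells and 1333 CPM in Control cells, and without Dusp1 to 662.0 CPM in FGR cells and 753.4 CPM in Control cells. Dusp1 made up 80.4% of the members' UMIs in FGR cells and 43.5% in Control cells.

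**Figure D1:**
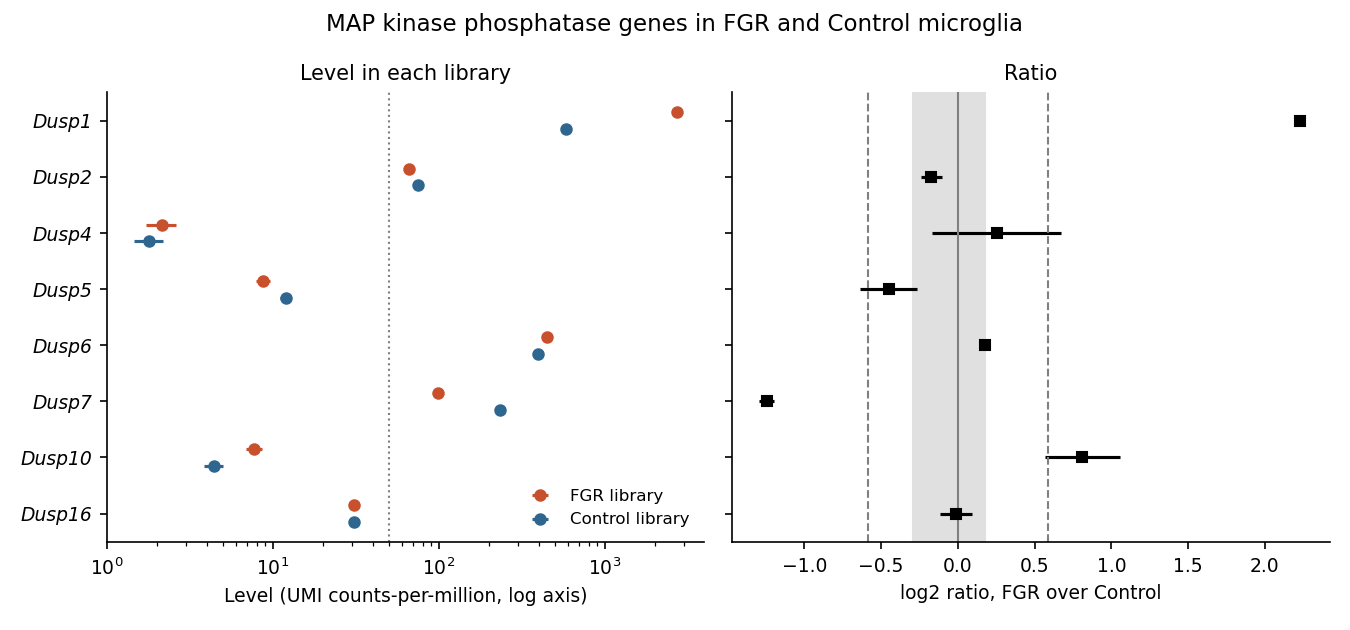
Levels of the 8 genes as UMI counts-per-million on a log axis (left, the dotted line at 50 CPM) and their log2 ratios, FGR over Control (right, dashed lines at 1.5-fold, grey band from the lowest to the highest decile of all genes measured, -0.29 to 0.18). Bars are 95% counting intervals, with 1 library per group, and only Dusp1 (log2 ratio 2.23) and Dusp7 (-1.24) lie wholly beyond the dashed lines with at least 50 CPM.

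Among the nuclear enzymes, Dusp1, which inactivates p38, JNK and ERK (ENSMUSG00000024190, chr17:26505590-26562128, minus strand, GRCm38, protein-coding as are all 8), had 123212 UMIs or 2711 CPM (2696 to 2727) in FGR cells. In Control cells it had 31017 UMIs or 579.1 CPM (572.7 to 585.6). The ratio was 4.68 (4.62 to 4.74). The annotated gene spans 56539 bases and overlaps Ergic1 on the other strand, which stood at 29.6 CPM in FGR cells and 25.5 CPM in Control cells. Free RNA, taken from barcodes of 10 to 100 UMIs, had Dusp1 at 3118 CPM for FGR and 672.6 CPM for Control, close to the levels in cells. Subtracting 5% of UMIs with that profile, a share that was set and not estimated, gave a ratio of 4.69. Since free RNA held Dusp1 near its level in the cells of each library, the subtraction could hardly move the ratio. Nothing about free RNA is read from it.

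Dusp2, a phosphatase of blood and immune cells that acts on ERK and p38 (ENSMUSG00000027368, chr2:127336159-127338376, plus strand), stood at 66.4 CPM (64.1 to 68.9) in FGR cells and 74.9 CPM (72.6 to 77.3) in Control cells. Its ratio of 0.886 (0.845 to 0.930) did not reach 1.5-fold. Dusp5, a nuclear phosphatase selective for ERK (ENSMUSG00000034765, chr19:53529109-53542431, plus strand), had 398 UMIs or 8.76 CPM in FGR cells and 641 UMIs or 11.97 CPM in Control cells, a ratio of 0.732 (0.644 to 0.831) below the minimum level. Dusp4, which acts on ERK and JNK (ENSMUSG00000031530, chr8:34807297-34819894, plus strand), was near the limit of detection with 97 UMIs or 2.13 CPM in FGR cells and 96 UMIs or 1.79 CPM in Control cells. Its interval of 0.889 to 1.60 held 1. Of the 4 nuclear members, then, Dusp1 alone was called.

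The cytoplasmic ERK phosphatases differed from each other. Dusp6, a feedback inhibitor of ERK (ENSMUSG00000019960, chr10:99263231-99267489, plus strand), stood at 447.6 CPM (441.5 to 453.8) in FGR cells and 395.8 CPM (390.5 to 401.2) in Control cells, a ratio of 1.13 (1.11 to 1.15). Dusp7, its close relative (ENSMUSG00000053716, chr9:106368632-106375724, plus strand), had 4480 UMIs or 98.6 CPM (95.7 to 101.5) in FGR cells and 12508 UMIs or 233.5 CPM (229.5 to 237.7) in Control cells. The ratio of Dusp7 was 0.422 (0.408 to 0.437). In free RNA Dusp7 was at 69.5 CPM for FGR and 157.6 CPM for Control, also lower for FGR.

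The JNK and p38 phosphatases had few counts. Dusp10 (ENSMUSG00000039384, chr1:184013302-184075636, plus strand) had 350 UMIs or 7.70 CPM in FGR cells and 235 UMIs or 4.39 CPM in Control cells. Its ratio of 1.76 (1.48 to 2.08) had the second highest value of the 8, but the level was under the minimum and the interval reached below 1.5. Dusp16 (ENSMUSG00000030203, chr6:134715468-134792625, minus strand) stood at 30.7 CPM in FGR cells and 30.9 CPM in Control cells, a ratio of 0.993 (0.924 to 1.07). Dusp5, Dusp10 and Dusp16 each overlap a gene on the other strand, and the sources used here do not say whether counting used strand. The overlapping genes 1700056E22Rik (at Dusp10) and Gm36328 (at Dusp16) stood at 2.18 and 0.154 CPM in FGR cells and at 0.765 and 0.131 CPM in Control cells.

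The difference in Dusp1 extended over most of the cells. To compare cells at equal depth, each was thinned to 1500 UMIs, and no cell was too shallow for this. The median FGR cell then held 3 Dusp1 UMIs, with 6 at the 75th percentile, 9 at the 90th and at most 31. The median Control cell held 0, with 1 at the 75th percentile, 3 at the 90th and at most 17. At least 1 Dusp1 UMI was seen in 82.4% of FGR cells (Clopper-Pearson interval 81.6 to 83.2%) and in 42.3% of Control cells (41.4 to 43.3%), or in 92.7% of FGR and 66.1% of Control cells without thinning. Cells of 6 or more Dusp1 UMIs numbered 2402 for FGR (27.9%) and 172 for Control (1.61%). No cell type known to lack Dusp1 was at hand for a background share. In the cells with more UMIs of other types' markers than of microglial markers the thinned shares were 54.9% of 51 FGR cells and 14.8% of 27 Control cells, at medians of 5328 and 4339 UMIs.

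Dusp7 was spread thinly over cells in both libraries. After thinning, 13.9% of FGR cells (13.2 to 14.6%) and 29.1% of Control cells (28.2 to 29.9%) held a Dusp7 UMI, or 37.4% of FGR and 64.2% of Control cells without thinning. In the cells dominated by other types' markers the share was 1.96% of the FGR and 7.41% of the Control cells. The variance of Dusp7 UMIs over cells was 1.03 times the mean in FGR cells and 1.05 times in Control cells, near the value of 1 that counting alone gives. For Dusp1 that quotient was 3.69 in FGR and 2.29 in Control cells, so cells of 1 library differed in Dusp1 far more than counting would make them. Dusp6 lay between, with quotients of 1.52 in FGR cells and 1.1998 in Control cells. A Dusp6 UMI was seen in 42.5% of FGR and 42.8% of Control thinned cells (25.5% of FGR and 18.5% of Control cells dominated by other types' markers). Cells with any Dusp6 held 1.58 UMIs on average in FGR and 1.42 in Control cells. The shares of cells with Dusp6 thus differed by less than their counting intervals, and no order is read from them.

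**Figure D2:**
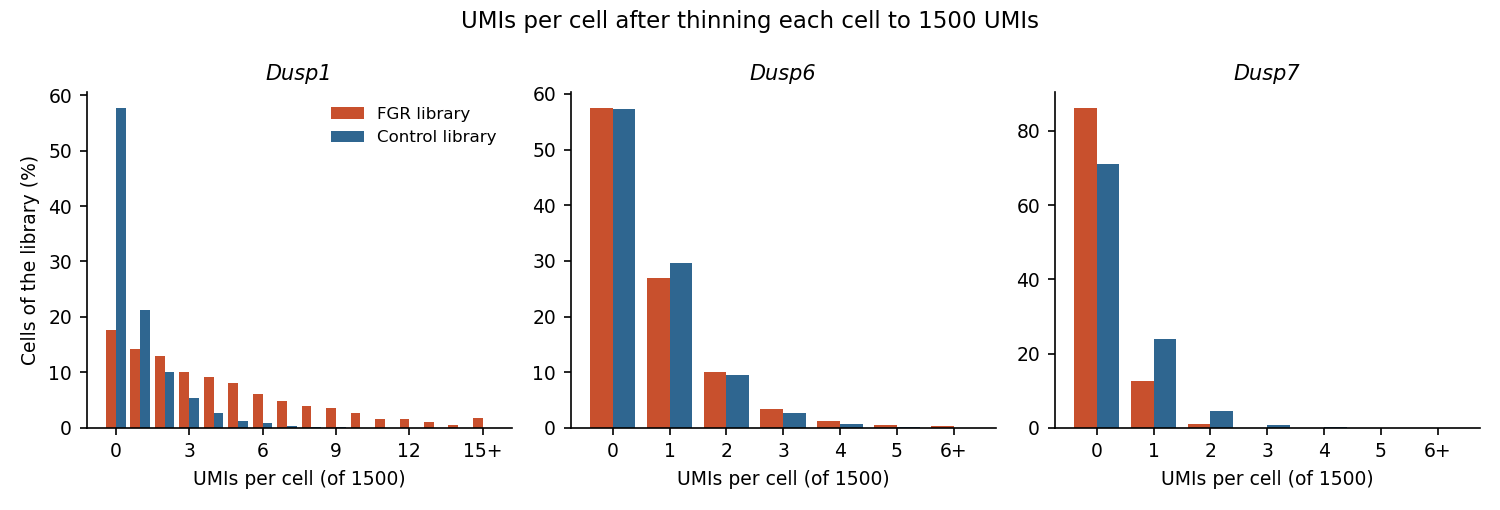
Share of cells of each library (y axis, %) by the number of UMIs per cell (x axis) of Dusp1, Dusp6 and Dusp7 after each cell was thinned to 1500 UMIs. For Dusp1 17.6% of FGR cells but 57.7% of Control cells are at 0, for Dusp6 the libraries are nearly level, and for Dusp7 more FGR cells are at 0.

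The members also differed in how they followed the immediate early genes, the transcripts that appear within minutes of stimulation and also during tissue dissociation. UMIs of 17 such genes (Fos, Jun, Egr1 and others, no Dusp gene) were summed per thinned cell, and cells of both libraries were put in 4 strata at the quartiles, of 0 to 33, 34 to 51, 52 to 72 and 73 or more UMIs. Of these genes, 8 of 17 were called higher in FGR cells and 0 lower, where over all genes measured 2.48% were called higher and 1.17% lower. The list was chosen with earlier results of these data known, so nothing is read from that count. The mean per thinned cell was 62.7 UMIs in FGR cells and 48.5 in Control cells. The top stratum held 34.5% of FGR cells and 16.2% of Control cells. From the lowest to the highest stratum Dusp1 stood at 838.3, 1912, 2743 and 4139 CPM in FGR cells and at 210.1, 491.2, 750.9 and 1124 CPM in Control cells. The top stratum over the lowest gave 4.94 (4.72 to 5.17) within FGR cells and 5.35 (4.98 to 5.75) within Control cells. Dusp1 thus followed the immediate early genes in both libraries, at a higher level throughout in FGR cells, with ratios of FGR over Control of 3.99 (3.70 to 4.31), 3.89, 3.65 and 3.68 (3.54 to 3.83). FGR cells of the lowest stratum, at 838.3 CPM, lay above Control cells of the third, at 750.9 CPM.

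Dusp7, the ERK phosphatase that was lower in FGR cells, differed little over the same strata. Its levels by stratum were 107.9, 100.2, 96.8 and 101.3 CPM in FGR cells and 212.0, 242.5, 247.7 and 242.9 CPM in Control cells. The highest FGR stratum over the lowest gave 0.938 (0.805 to 1.09), and the same within Control cells 1.15 (1.04 to 1.27). The ratios of FGR over Control were 0.509 (0.444 to 0.583), 0.413, 0.391 and 0.417, so the lower level was seen in every stratum.

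The direction of Dusp6 depended on the stratum, with counting intervals below 1 in the lowest and above 1 in the highest. It stood at 301.1, 356.6, 441.0 and 596.4 CPM in FGR cells and at 350.6, 405.7, 438.3 and 454.6 CPM in Control cells. The top stratum over the lowest was 1.98 (1.83 to 2.15) within FGR cells and 1.30 (1.203 to 1.40) within Control cells, and these intervals do not overlap. The ratio of FGR over Control was 0.859 (0.787 to 0.936) in the lowest stratum, 0.879 and 1.01 in between, and 1.31 (1.22 to 1.41) in the highest. When equal numbers of cells with the same immediate early UMIs were taken from each library (7262 per library), the Dusp6 ratio was 1.02 (0.997 to 1.04), against 3.73 (3.68 to 3.79) for Dusp1 and 0.424 (0.408 to 0.440) for Dusp7.

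The inducible Dusp2 and Dusp5 followed the immediate early genes at lower levels. Dusp2 stood at 22.3, 51.6, 71.2 and 65.3 CPM in FGR cells and at 47.4, 73.0, 78.7 and 75.4 CPM in Control cells, with a ratio of 0.471 (0.345 to 0.633) in the lowest stratum and 0.866 (0.720 to 1.04) in the highest. Dusp5, on 109 FGR and 181 Control thinned UMIs in all, stood at 5.18, 4.75, 6.63 and 13.9 CPM in FGR cells and at 2.49, 6.90, 16.5 and 26.9 CPM in Control cells. The top stratum of Dusp5 over the lowest was 2.69 (1.46 to 5.33) within FGR cells and 10.8 (5.81 to 21.9) within Control cells. Its ratio of FGR over Control in the lowest stratum, on 13 and 12 UMIs, had an interval that held 1 (0.873 to 4.98). In the 2 highest strata its ratios of FGR over Control were 0.402 (0.231 to 0.671) and 0.517 (0.361 to 0.738). Dusp4, Dusp10 and Dusp16 had intervals that held 1 in all 4 strata.

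**Figure D3:**
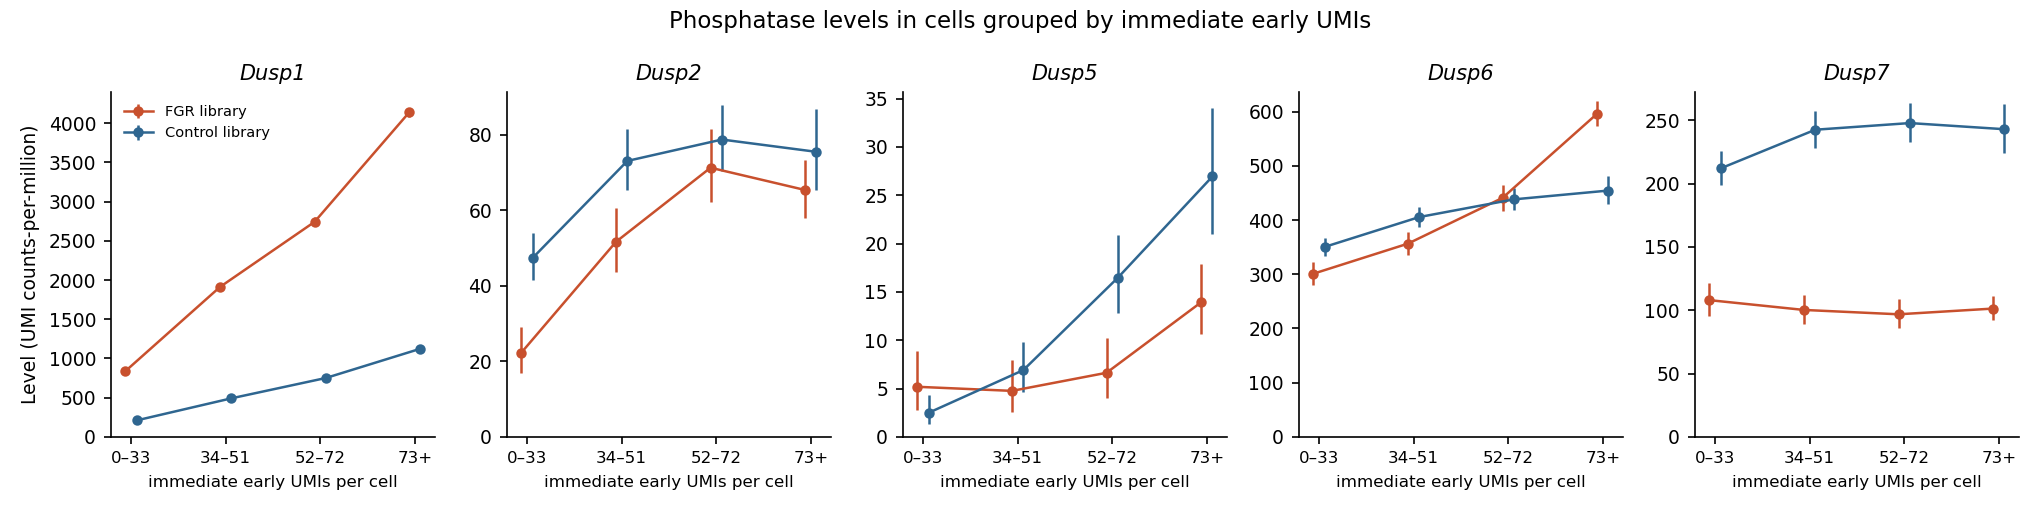
Levels (y axes, UMI counts-per-million) of Dusp1, Dusp2, Dusp5, Dusp6 and Dusp7 in cells grouped by the summed UMIs of 17 immediate early genes per thinned cell (x axes), with 95% counting intervals, in 1 library per group. Dusp1 climbs in both libraries at a higher level in FGR cells, Dusp7 is flat and lower in FGR cells, and the Dusp6 lines cross.

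Cells were also grouped by their own Dusp1 count. In thinned cells of 0, 1 to 2, 3 to 5 and 6 or more Dusp1 UMIs, Dusp6 stood at 331.1, 402.9, 445.5 and 568.7 CPM in FGR cells and at 386.9, 416.3, 478.7 and 434.1 CPM in Control cells, the last from 112 UMIs in 172 cells. Dusp2 stood at 31.7, 49.1, 66.8 and 64.7 CPM in FGR cells and at 64.7, 73.8, 64.2 and 46.5 CPM in Control cells. Cells of 3 to 5 Dusp1 UMIs over cells of 0 gave a Dusp2 quotient of 2.11 (1.61 to 2.78) within FGR cells and 0.993 (0.793 to 1.23) within Control cells. Dusp7 was between 91.8 and 105.7 CPM in every FGR group and between 217.1 and 238.1 CPM in every Control group. Cells of 6 or more Dusp1 UMIs and cells of 0 after thinning carried about the same Dusp7, so the 2 differences between the libraries did not fall on separate cells. Part of the cells of 0 held Dusp1 before thinning, so they are cells low in Dusp1 and not cells without it.

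**Figure D4:**
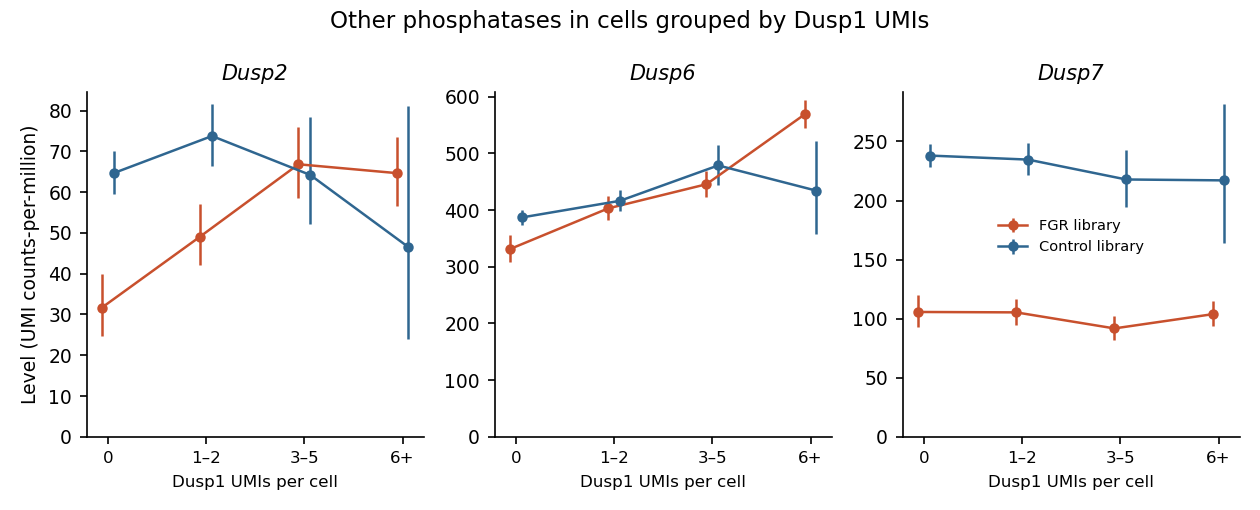
Levels (y axes, UMI counts-per-million) of Dusp2, Dusp6 and Dusp7 in thinned cells grouped by their Dusp1 UMIs (x axes), with 95% counting intervals, in 1 library per group. Dusp7 stays near 100 CPM in FGR cells and above 200 CPM in Control cells whatever the Dusp1 count, while Dusp6 is highest in FGR cells of 6 or more Dusp1 UMIs.

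The genes most like Dusp1 were immediate early genes. Across thinned cells, among 3080 genes of at least 50 CPM in both libraries, the 5 with the highest correlation with Dusp1 (Pearson's r of log counts, ranked by the lower of the libraries) were Fos, with 0.512 in FGR cells and 0.317 in Control cells, then Jun, Jund, Egr1 and Fosb. These 4 had 0.409, 0.411, 0.337 and 0.339 in FGR cells and 0.271, 0.261, 0.243 and 0.231 in Control cells. They are descriptions over 8618 and 10687 cells that share a library, and cells are not replicates. Per 100 Fos UMIs the FGR library held 64.0 Dusp1 UMIs and the Control library 29.3, and per 100 Egr1 UMIs the FGR library held 95.05 and the Control library 15.3. Egr1, a target of ERK, stood at 2853 CPM in FGR cells and 3777 CPM in Control cells and was not called. The closest genes to Dusp6 (Jund, Jun, Fosb, Malat1 and Klf6) reached at most 0.188 in FGR and 0.0847 in Control cells. Those closest to Dusp7 (P2ry12, Cx3cr1, Rhob, Serinc3 and Maf) reached at most 0.0578 in FGR and 0.0465 in Control cells, which in counts this sparse are not a finding. Between members the largest correlation was that of Dusp1 with Dusp6, 0.133 in FGR and 0.0435 in Control cells.

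The ratios of Dusp1, Dusp2 and Dusp6 differed with the depth of the cells. In cells of 1500 to under 3000, under 5000, under 8000 and 8000 or more UMIs the ratio of Dusp1 was 3.18 (2.95 to 3.42), 4.75, 4.79 and 4.69, and that of Dusp7 was 0.395, 0.421, 0.435 and 0.411. Dusp2 stood at 17.8, 45.4, 73.8 and 101.2 CPM in FGR cells and at 40.1, 62.9, 84.1 and 95.9 CPM in Control cells, so its level climbed with the size of the cell's library in both. Its ratio was 0.443 (0.282 to 0.681) in the smallest class and 1.06 (0.952 to 1.17) in the largest. The Dusp6 ratio was 0.797 (0.717 to 0.885), 1.14, 1.23 and 1.03. The smallest class held 8.27% of FGR and 7.92% of Control cells.

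Glucocorticoid-induced genes and chemokine genes were used to group cells as well. Both lists were chosen after seeing the data, so nothing is read from the calls of their genes. In cells grouped by the summed UMIs of Tsc22d3, Fkbp5, Sgk1, Per1, Ddit4 and Txnip, of which all 6 were called higher in FGR cells, the Dusp1 ratio was 1.83 (1.54 to 2.17) in cells with 0 such UMIs (125 FGR and 671 Control cells), 3.42 with 1, 4.06 with 2 to 3 and 4.45 (4.31 to 4.60) with 4 or more. Within Control cells Dusp1 differed little over these groups, at 524.6, 522.9, 551.8 and 626.5 CPM, while in FGR cells it stood at 960.0, 1788, 2241 and 2790 CPM. The climb was not particular to Dusp1. The Dusp6 ratio was 0.524, 0.606, 0.923 and 1.11 over the same groups, and the Dusp7 ratio 0.217, 0.303, 0.371 and 0.438. In the first group these rest on 33 Dusp6 and 8 Dusp7 UMIs of FGR cells. The Dusp2 ratio, at 0.432, 1.62, 0.956 and 0.806, did not climb steadily. By UMIs of the chemokine genes Ccl3 and Ccl4 the Dusp1 ratio stayed between 4.21 and 4.81 and the Dusp7 ratio between 0.430 and 0.463. Cells of 10 or more such UMIs had more Dusp2 than cells of 0, with quotients of 2.39 (1.95 to 2.94) in FGR cells and 1.64 (1.37 to 1.95) in Control cells, and less Dusp7, with 0.766 (0.656 to 0.893) in FGR and 0.778 (0.693 to 0.872) in Control cells. The part of the immediate early, glucocorticoid and depth differences in the members' ratios was not tested.

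Other genes of the phosphatase family and of the MAP kinase pathway are given by list. Over all genes measured only 3.64% were called, so a short list with 0 or 1 called is not a finding about its genes. Of 21 further Dusp, Styx and slingshot (Ssh) genes found, 3 were measured and 0 called, with ratios of 1.01 for Dusp11, 0.869 for Dusp3 and 1.04 for Ssh2, whose product acts on cofilin, and a median log2 ratio of 0.02. Dusp18, at 15.9 CPM in FGR cells and 7.28 CPM in Control cells (ratio 2.19, 1.93 to 2.48), was the only 1 of the 18 below the minimum whose interval lay beyond 1.5-fold. Dusp8 and Dusp9, the MAP kinase phosphatases outside the 8 members, stood at 12.7 and 0.242 CPM in FGR cells and at 12.1 and 0.168 CPM in Control cells.

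Of 13 MAP kinase genes 5 were measured and 0 called, with a median log2 ratio of -0.11. Mapk6, an atypical MAP kinase, stood at 56.8 CPM in FGR cells and 36.9 CPM in Control cells, a ratio of 1.54 (1.45 to 1.63) just short of the rule. Mapk8, which encodes a JNK, had 0.761, Mapk14, which encodes p38 alpha, 0.872, and Mapk3, which encodes ERK1, 1.02. Of 11 measured kinases and adaptors upstream, 1 was higher and 0 lower. This was Map3k8, a kinase that activates the ERK pathway downstream of Toll-like receptors, at 93.5 CPM in FGR cells and 43.7 CPM in Control cells (ratio 2.14, 2.04 to 2.25). Nras, Hras and Map3k1 had ratios of 0.744, 0.763 and 0.780, and the list's median was -0.21.

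Of 5 measured kinases activated by MAP kinases 0 were called, with a median of -0.06. Mknk2 had 0.720, Rps6ka1 0.809, Mapkapk2, a target of p38, 1.16 and Rps6ka3 0.961. Among 10 measured feedback and target genes of ERK, Myc was higher (54.8 CPM in FGR cells against 32.0 CPM in Control cells, ratio 1.71, 1.61 to 1.82) and Egr2 lower (43.9 CPM in FGR cells against 96.5 CPM in Control cells, ratio 0.456, 0.432 to 0.480). The feedback inhibitor Spred1 had 0.881, and the median of the 10 measured genes was -0.11. Genes of this list below the minimum level leaned the other way. Spry1 had 1.38 (1.30 to 1.48), Spred2 1.18 (1.07 to 1.29), Phlda1 2.63 (2.38 to 2.91) and Plaur 2.87 (2.57 to 3.21). On few UMIs, Spry2 had 2.26 (1.08 to 4.98) and Spry4 3.35 (1.74 to 6.88). The intervals of the rest below the minimum held 1. Of 3 measured phosphatases of MAP kinases outside the Dusp family, Ppp2ca, Ppp2r1a and Ppm1a, 0 were called, with ratios of 0.899, 0.913 and 0.983. Within the immediate early list, Fos, Klf4, Fosb and Atf3 had the largest ratios (2.15, 2.15, 2.04 and 1.96), Jund, Klf6, Nr4a1 and Zfp36 were also called higher (1.51, 1.77, 1.69 and 1.61), and the median log2 ratio was 0.58.

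Markers of other cell types, unequal between the libraries as given above, were set against the Dusp1 and Dusp7 differences by leaving cells out. The cells that held 3 or more UMIs of such markers were 3630 FGR (42.1%) and 3812 Control cells (35.7%). Without them the ratio was 4.48 (4.41 to 4.55) for Dusp1 and 0.429 (0.410 to 0.450) for Dusp7, against 4.68 and 0.422 over all cells. Other types' markers outnumbered microglial markers in only 51 FGR and 27 Control cells, so most cells left out were not dominated by them. The part of other cell types in the differences was not tested.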

How the data were processed

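Sorted hippocampal microglia were measured in 1 FGR and 1 Control library, grouped by the sample titles. The deposited matrices hold unnormalised UMI counts for every barcode, before any choice of cells. Per the file headers they come from Cell Ranger 4, whereas the submitters' processing notes name Cell Ranger 3.0, Seurat 5.0 and build mm10. No source used here names the gene annotation. The libraries held 50833332 (FGR) and 58988805 (Control) UMIs over all barcodes, of which 45441515 and 53560293 were in cells. Counts of 38 symbols shared by several gene IDs were summed, and gene coordinates came from GENCODE M21 (GRCm38). Doublets were not called. In 1 alternative the 6% of cells with the highest UMI totals were dropped.

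UMIs were summed over cells and scaled to CPM. Levels have exact Poisson intervals and ratios exact conditional intervals at 95%, for counting error only, since the depth limits precision and 1 library per group allows no test. Thinning drew 1500 UMIs per cell without replacement (seed 11). The calculation was checked on simulated counts. Genes named were the 8 members, the called genes and up to 4 measured genes of largest ratio per list, and the 5 genes most like Dusp1, Dusp6 and Dusp7. Dusp8, Dusp9, Dusp18, Ergic1, some cell type markers and some pathway genes with smaller ratios or below the minimum level were named after their values were seen. The members, lists and strata were chosen with earlier results of these data known, and the glucocorticoid and chemokine strata, the depth classes and the matching on immediate early UMIs after seeing the data. Alternatives covered cell limits, scaling, summing, doublets, other-type cells, free RNA, the minimum level and the fold limit. Python 3.11.15, numpy 2.4.6 and scipy 1.17.1 were used. Some genes of the lists are not reported here.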

Additional observations from a re-analysis of the deposited data

How the results depend on the processing

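Dusp1 was the only member called higher and Dusp7 the only member called lower in all 13 alternatives. The Dusp1 ratio ranged from 3.73 (cells matched on immediate early UMIs) to 4.89 (scaling by the median ratio) and the Dusp7 ratio from 0.421 to 0.441. Of 80 member ratios recomputed, 67 lay within the counting interval of the reported value, 13 outside it, and no called ratio changed sides of 1. Dusp16 crossed 1 with median-ratio scaling (1.04), which shifts all log2 ratios by 0.06. Dusp5 reached its lowest ratio, 0.565, and Dusp6 its lowest, 1.02, in the matched cells. Over all genes, a minimum of 10 CPM gave 181 higher and 88 lower, no minimum 709 and 237, and a fold limit of 2 gave 40 and 9, against 87 and 41 as reported, changes that follow from the number of genes tested and the stricter limit. In matched cells, an alternative chosen after seeing the data, 69 genes were higher and 72 lower, and the cause was not tested. Averaging each cell's own CPM gives no counting interval, so calls there used the ratio alone. No paired analysis was possible because each group is 1 library, and no replicate could be left out for the same reason. Dusp4, Dusp5 and Dusp10, with at most 641 UMIs in a library, are limited by depth.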
